A study of Homo sapiens with 6 samples.

Results

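WNT target genes were followed in HepG2 cells treated with a plant extract, together with SOX9. The set held 10 genes, AXIN2, ZNRF3, RNF43, LGR5, NKD1, SP5, TCF7, DKK1, NOTUM and SOX9. Every gene-detecting probe that the scanner files name after one of them was used, which gave 15 of 41000 probes and 10 of 19171 gene names. HepG2 is a human hepatoma line that carries an activating mutation of the beta-catenin gene CTNNB1. The series holds 6 one-colour Agilent arrays. The 5 treated arrays carried RNA of cells exposed to ESB, an extract of Scutellaria baicalensis, at 100 µg/ml for 1, 3, 6, 12 or 24 h, and 1 array carried RNA of control cells. The design asks how expression moves with the time of exposure. Every group was a single array of 1 cell line, so differences at a single time come without a spread between replicates. The control carries no time in the labels. It was taken as 0 h by assumption, and no time-matched control was analysed here.

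WNT ligands bind Frizzled receptors with the co-receptors LRP5 and LRP6 and stop the destruction complex of APC, AXIN and GSK3 from marking beta-catenin for degradation. Beta-catenin then enters the nucleus and turns on genes bound by TCF and LEF factors. Many of these targets feed back on the pathway, as scaffolds of the destruction complex (AXIN2), as ubiquitin ligases that remove Frizzled (ZNRF3 and RNF43), or as secreted inhibitors (DKK1 and NOTUM). In cells with mutant beta-catenin the pathway is active without a ligand. SOX9 is a transcription factor of biliary and progenitor cells of the liver and a WNT target in the intestine.

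The 60-base probes that the results turn on are printed first, because several genes were read by more than 1 probe and these did not always give the same difference. Sequences and positions are those in the scanner files, which do not name the genome build, and nothing is capitalised. The SOX9 probe lay at chr17:67633436-67633495 on the plus strand. The ZNRF3 probes lay at chr22:27777415-27777474 (downstream) and chr22:27774166-27774225 (upstream), 3249 bases apart on the plus strand. AXIN2 is on the minus strand of chromosome 17, with probes at chr17:60955851-60955910 (last), chr17:60956106-60956163 (middle) and chr17:60984850-60984909 (upstream). The SP5 probes lay at chr2:171399924-171399983 (last), chr2:171399797-171399856 (middle) and chr2:171398482-171398541 (upstream), on the plus strand. The NOTUM probe spanned 1165 bases of the minus strand, chr17:77506653-77507817. These files do not say whether a probe lies in coding sequence or in an untranslated region.
SOX9 A_23_P26847: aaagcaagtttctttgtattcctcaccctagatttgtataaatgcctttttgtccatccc
ZNRF3 downstream A_23_P427502: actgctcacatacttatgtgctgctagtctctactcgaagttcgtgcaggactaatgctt
ZNRF3 upstream A_24_P162373: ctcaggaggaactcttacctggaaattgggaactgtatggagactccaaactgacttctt
AXIN2 last A_23_P148015: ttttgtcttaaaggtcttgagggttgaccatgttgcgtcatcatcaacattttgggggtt
AXIN2 middle A_23_P159395: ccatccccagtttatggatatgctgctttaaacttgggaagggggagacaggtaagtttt
AXIN2 upstream A_24_P298027: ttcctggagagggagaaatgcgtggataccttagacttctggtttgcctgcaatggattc
SP5 last A_32_P183718: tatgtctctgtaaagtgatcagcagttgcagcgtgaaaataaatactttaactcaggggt
SP5 middle A_23_P135381: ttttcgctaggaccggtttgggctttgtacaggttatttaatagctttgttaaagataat
SP5 upstream A_32_P74615: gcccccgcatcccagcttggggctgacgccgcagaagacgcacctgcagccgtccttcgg
NOTUM A_23_P101007: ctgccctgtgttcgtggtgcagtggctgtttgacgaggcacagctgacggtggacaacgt

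The GC content of the 15 probes had a median of 45% and ran from 35% to 71.7%, and the highest was the upstream SP5 probe. All 41000 probes had a median of 41.7%. AXIN2, RNF43, NOTUM and SOX9, 4 of the 10 genes, lie on chromosome 17, which holds 5.9% of all named genes with a position.

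Array brightness varied. Processed signals had a 75th percentile of 697 units on the control array, then of 988, 1710, 140, 376.2 and 1460 units at 1, 3, 6, 12 and 24 h, a 12.2-fold range. Between 69.8% and 73.2% of probes were well above background on the control, 1 h, 3 h and 24 h arrays, against 49.5% at 6 h and 64.4% at 12 h. Levels are therefore given as log2 of the signal minus log2 of that percentile on the same array. After this scaling the median difference of all measured probes from the control was 0.32 at 6 h and 0.17 at 12 h, and lay within 0.04 of 0 at 1, 3 and 24 h. Log2 differences are given as treated minus control. The error after ± is the SD of 1 probe's difference, taken from genes that 2 probes measure. This SD was 0.35, 0.45, 0.76, 0.67 and 0.68 at 1, 3, 6, 12 and 24 h, and it leaves out variation between cultures and arrays. As a check of the cell line, 13 of 13 hepatocyte markers were well above background on every array. Of 7 fibroblast and stellate markers, 1 to 3 were above background per array, with a summed level between 5.32 and 7.76 times the 75th percentile, and COL1A1, COL3A1, DES and LUM were above it on no array. Blood markers gave 3 to 6 of 7 with sums between 4.52 and 9.96, HBB on no array, and endothelial markers 1 to 2 of 4 with sums between 0.20 and 0.48.

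SOX9 was lower at every time, and by more than 8-fold from 6 h on with the scaling used here. With normexp, another background correction, SOX9 was at -2.56 at 6 h and -2.81 at 12 h, which is less than 8-fold. Both ZNRF3 probes, 2 of 3 AXIN2 probes and LGR5, which encodes a receptor of R-spondins, were lower at 6 h and 12 h. At 6 h LGR5 and the middle AXIN2 probe were not well above background, and normexp put them above the control. NOTUM, which encodes a secreted enzyme that strips the lipid from WNT proteins, was higher at every time, except at 6 h with normexp. DKK1 was lower at every time, by less than 2-fold with the scaling used here, and NKD1 and TCF7 then stayed within 0.44 log2 units of the control. With normexp DKK1 was at -2.18 and NKD1 at -1.32 at 6 h. At 1 h, 1 of 15 measured member probes was at least 2-fold higher and 0 at least 2-fold lower, against 2.91% and 0.922% of all measured probes. At 3 h, 1 of 14 was higher and 2 lower, against 4.85% and 4.56%. At 6 h, 4 of 13 were higher and 4 lower, against 23.5% and 10.8%. At 12 h, 2 of 15 were higher and 5 lower, against 13.5% and 10.1%. At 24 h, 1 of 14 was higher and 6 lower, against 8.78% and 13.4%. The member median was 0.15, -0.26, -0.11, -0.81 and -0.80 from 1 h to 24 h, beside an all-probe median of -0.04, -0.002, 0.32, 0.17 and -0.02. Probes of 1 gene share their RNA, so these counts are not over independent members. The 6 h and 12 h arrays are the dim ones, and the part of brightness in these differences was not tested. SOX9 and the upstream ZNRF3 probe were also more than 2-fold lower at 3 h and 24 h, on bright arrays. A measured probe is one well above background and unsaturated on both arrays.

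**Figure D1:**
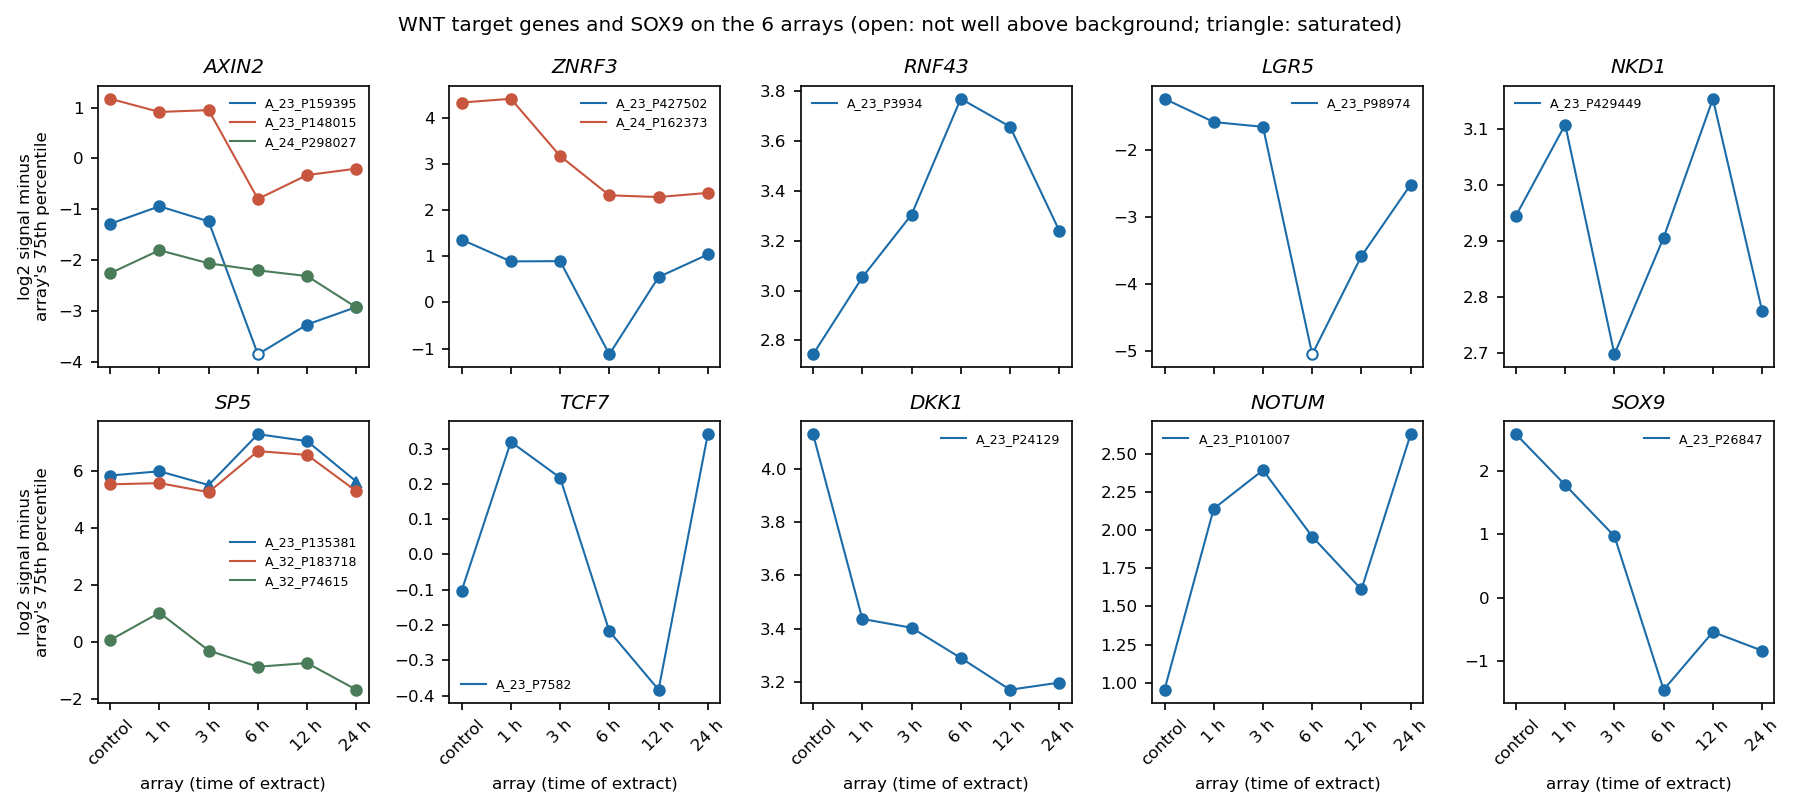
Scaled log2 signal (y axis, log2 units relative to the array's 75th percentile, with a scale of its own in each panel) of the 15 member probes on the 6 arrays (x axis, control and hours of extract), 1 line per probe and 1 array per point. SOX9 lies between -1.46 and 1.78 on the treated arrays and at 2.58 on the control array, and NOTUM lies between 1.61 and 2.63 on the treated arrays and at 0.95 on the control array.

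SOX9 had a scaled log2 level of 2.58 on the control array, then 1.78, 0.97, -1.46, -0.54 and -0.84 at 1, 3, 6, 12 and 24 h. Every treated array was below the control, and the 3 latest arrays were below both early ones. The differences, from the first time to the last, were -0.80 ± 0.35, -1.61 ± 0.45, -4.04 ± 0.76, -3.13 ± 0.67 and -3.42 ± 0.68. SOX9 was thus 1.74-fold lower at 1 h, 3.05-fold lower at 3 h, and 16.4-, 8.72- and 10.7-fold lower on the 6, 12 and 24 h arrays. Of all measured probes, 2.53% were at least as low as SOX9 at 1 h and 1.3% at 3 h. The share was 0.0355% (7 of 19731 probes) on the 6 h array, 0.237% on the 12 h array and 0.367% on the 24 h array. The 24 h array was below the 3 h array by -1.81 ± 0.49, and neither array is among the dim ones. In the order of levels, the 12, 24 and 6 h arrays were neighbours within the error of their difference, whereas the control, 1 h and 3 h arrays were each further from their neighbours. The SOX9 result rests on 1 probe.

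AXIN2 encodes a scaffold of the destruction complex and is a widely used readout of WNT signalling. Its last probe had levels of 1.17 on the control array, then 0.91, 0.95, -0.80, -0.33 and -0.20 at 1, 3, 6, 12 and 24 h. The 3 late arrays were below the control and both early arrays. The differences from the control were -0.26 ± 0.35, -0.22 ± 0.45, -1.97 ± 0.76, -1.50 ± 0.67 and -1.37 ± 0.68. The middle probe, 255 bases away, had levels of -1.29 on the control array, then -0.94, -1.24, -3.85, -3.26 and -2.92 at the same times. It showed the same split between early and late arrays, with differences of -1.98 ± 0.67 at 12 h and -1.63 ± 0.68 at 24 h. At 6 h it was not well above background. Put at the dimmest level well above background on that array, it would be 4.13-fold lower. Other probes not well above background lay higher than that level, so this is no firm bound. With normexp background correction the middle probe was at 0.62 at 6 h and -0.45 at 12 h. The upstream probe, nearly 29 kb from the others, had levels of -2.26 on the control array, then -1.80, -2.06, -2.20, -2.31 and -2.93 at the 5 times. Its largest difference was -0.67 ± 0.68 at 24 h, and no treated array was 2-fold from the control. With normexp this probe was at 1.5 at 6 h and 0.63 at 12 h. The last and the upstream probe were -2.03 apart at 6 h, and 6.88% of 3024 pairs of probes of 1 gene were at least as far apart. The gap was -1.44 at 12 h and -0.70 at 24 h, where 12.5% and 42% of pairs were as far apart.

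NKD1 encodes an antagonist that binds Dishevelled. Its level was 2.95 on the control array, then 3.11, 2.70, 2.91, 3.15 and 2.78 at 1, 3, 6, 12 and 24 h. These 6 values span 0.46 log2 units, and each neighbour in their order lies within the error of the next. The differences from the control ran from -0.25 ± 0.45 at 3 h to 0.21 ± 0.67 at 12 h. With normexp background correction the 6 h array was at -1.32, and with cyclic loess at -0.54.

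ZNRF3 encodes a membrane ubiquitin ligase that removes Frizzled receptors from the cell surface. The upstream probe had levels of 4.33 on the control array, then 4.41, 3.17, 2.32, 2.28 and 2.37 at 1, 3, 6, 12 and 24 h. The control and 1 h arrays were high and nearly equal, and the 6, 12 and 24 h arrays were low and nearly equal. In time order the differences were 0.08 ± 0.35, -1.16 ± 0.45, -2.01 ± 0.76, -2.05 ± 0.67 and -1.96 ± 0.68. The downstream probe had levels of 1.36 on the control array, then 0.89, 0.90, -1.12, 0.55 and 1.04 at the 5 times. In the order of these levels, only the 6 h array was further from its neighbour than the error. The downstream probe's differences were -0.47 ± 0.35, -0.47 ± 0.45, -2.48 ± 0.76, -0.81 ± 0.67 and -0.32 ± 0.68 in time order. At 24 h ZNRF3 was therefore 3.88-fold lower by the upstream probe and 1.25-fold lower by the downstream one.

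The gap between the ZNRF3 probes, downstream minus upstream, was -0.55, 0.69, -0.48, 1.24 and 1.63 log2 units at 1, 3, 6, 12 and 24 h. Such gaps had an SD of 0.50, 0.63, 1.08, 0.95 and 0.96 over all genes that 2 probes measured. Of these pairs, 24.95%, 26.1%, 60.55%, 17.2% and 9.26% were at least as far apart at the same times. The ZNRF3 gap was thus widest at 24 h and within 2 SDs of the gaps of other genes at every time. With normexp background correction the 6 h gap was 1.77, with the sign turned, from -1.37 at the downstream and -3.14 at the upstream probe.

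RNF43, a ligase of the same family, had levels of 2.74 on the control array, then 3.05, 3.30, 3.77, 3.66 and 3.24 at 1, 3, 6, 12 and 24 h. With this scaling each treated array was above the control. The differences were 0.31 ± 0.35, 0.56 ± 0.45, 1.03 ± 0.76, 0.91 ± 0.67 and 0.50 ± 0.68, each at most 1.36 times its error, and the one at 6 h was -0.39 with normexp background correction. At 6 h, 22.7% of measured probes were at least as high. LGR5 had levels of -1.23 on the control array, then -1.58, -1.65, -5.05, -3.58 and -2.51 at the 5 times. With this scaling all treated arrays were below the control, the 3 late ones by more than 2-fold. LGR5 was lower by -2.35 ± 0.67 at 12 h and -1.28 ± 0.68 at 24 h. At 6 h its probe was not well above background. Put at the dimmest level well above background on that array, it would be 4.29-fold lower, which is no firm bound. Normexp turned the 6 h value to 0.93 and put the 12 h value at -0.27.

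The secreted inhibitors lay on opposite sides of the control. NOTUM had levels of 0.95 on the control array, then 2.14, 2.39, 1.96, 1.61 and 2.63 at 1, 3, 6, 12 and 24 h. No treated array reached down to the control. The differences were 1.19 ± 0.35, 1.44 ± 0.45, 1.00 ± 0.76, 0.66 ± 0.67 and 1.68 ± 0.68 in time order, and the 6 h value was -0.038 with normexp background correction. NOTUM was 2.28-fold higher at 1 h and 3.2-fold higher at 24 h. Of all measured probes, 1.53%, 1.36% and 1.96% were at least as high on the 1, 3 and 24 h arrays, and 23.4% and 26.4% on the 6 h and 12 h arrays. DKK1, which encodes an inhibitor that binds the co-receptors LRP5 and LRP6, had levels of 4.13 on the control array, then 3.44, 3.40, 3.29, 3.17 and 3.20 at the 5 times. The treated arrays were all below the control, and in the order of levels each lay within the error of the next. The differences of DKK1 were -0.69 ± 0.35, -0.73 ± 0.45, -0.84 ± 0.76, -0.96 ± 0.67 and -0.93 ± 0.68, and 4.35% of measured probes were at least as low at 1 h and 14.8% at 24 h. DKK1 was at -2.18 at 6 h and -1.27 at 12 h with normexp.

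SP5 encodes a zinc-finger repressor of the Sp family that beta-catenin induces directly in many cell types. The last probe had levels of 5.55 on the control array, then 5.59, 5.27, 6.71, 6.58 and 5.31 at 1, 3, 6, 12 and 24 h. With this scaling its 6 h and 12 h arrays, the dim ones, were above the other 4. The differences of the last probe were 0.04 ± 0.35, -0.27 ± 0.45, 1.17 ± 0.76, 1.03 ± 0.67 and -0.24 ± 0.68. The middle probe, 127 bases away, had differences of 0.15, 1.45 and 1.21 at 1, 6 and 12 h and was saturated at 3 h and 24 h. Its signals there were 78600 and 73000 units, and those of the last probe, not flagged as saturated, were 66100 and 57800 units. Across settings the last probe's difference ran from -0.27 to 0.62 at 3 h and from -0.26 to 0.16 at 24 h. With normexp background correction the 6 h values of the last and middle probes were -0.40 and -0.17, and with quantile normalization they were 0.17 and 0.25. With quantile normalization the 12 h values were 0.28 and 0.33. The upstream SP5 probe had levels of 0.08 on the control array, then 1.04, -0.29, -0.86, -0.73 and -1.67 at the 5 times. It was high at 1 h and lowest at 24 h, and with this scaling the reverse of the other probes at 6 h and 12 h. The upstream probe's differences were 0.96 ± 0.35, -0.37 ± 0.45, -0.94 ± 0.76, -0.81 ± 0.67 and -1.74 ± 0.68 in time order. Between the last and the upstream probe the gap was 2.10, 1.84 and 1.5 log2 units at 6, 12 and 24 h, and 6.05%, 6.93% and 11.8% of pairs were at least as far apart. At 6 h the upstream probe lay between -0.95 and -0.16 under all settings. With normexp all SP5 probes were thus below the control at 6 h, and did not lie on opposite sides of it.

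TCF7 encodes a TCF/LEF factor that binds beta-catenin at target genes. Its probe was printed in 10 spots per array, and the SD between these spots was at most 0.065 log2 units. Its level was -0.10 on the control array, then 0.32, 0.22, -0.22, -0.38 and 0.34 at 1, 3, 6, 12 and 24 h. The 6 h and 12 h arrays were below the control and the other treated arrays above it. The differences were 0.42 ± 0.35, 0.32 ± 0.45, -0.11 ± 0.76, -0.28 ± 0.67 and 0.44 ± 0.68, each at most 1.2 times its error.

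**Figure D2:**
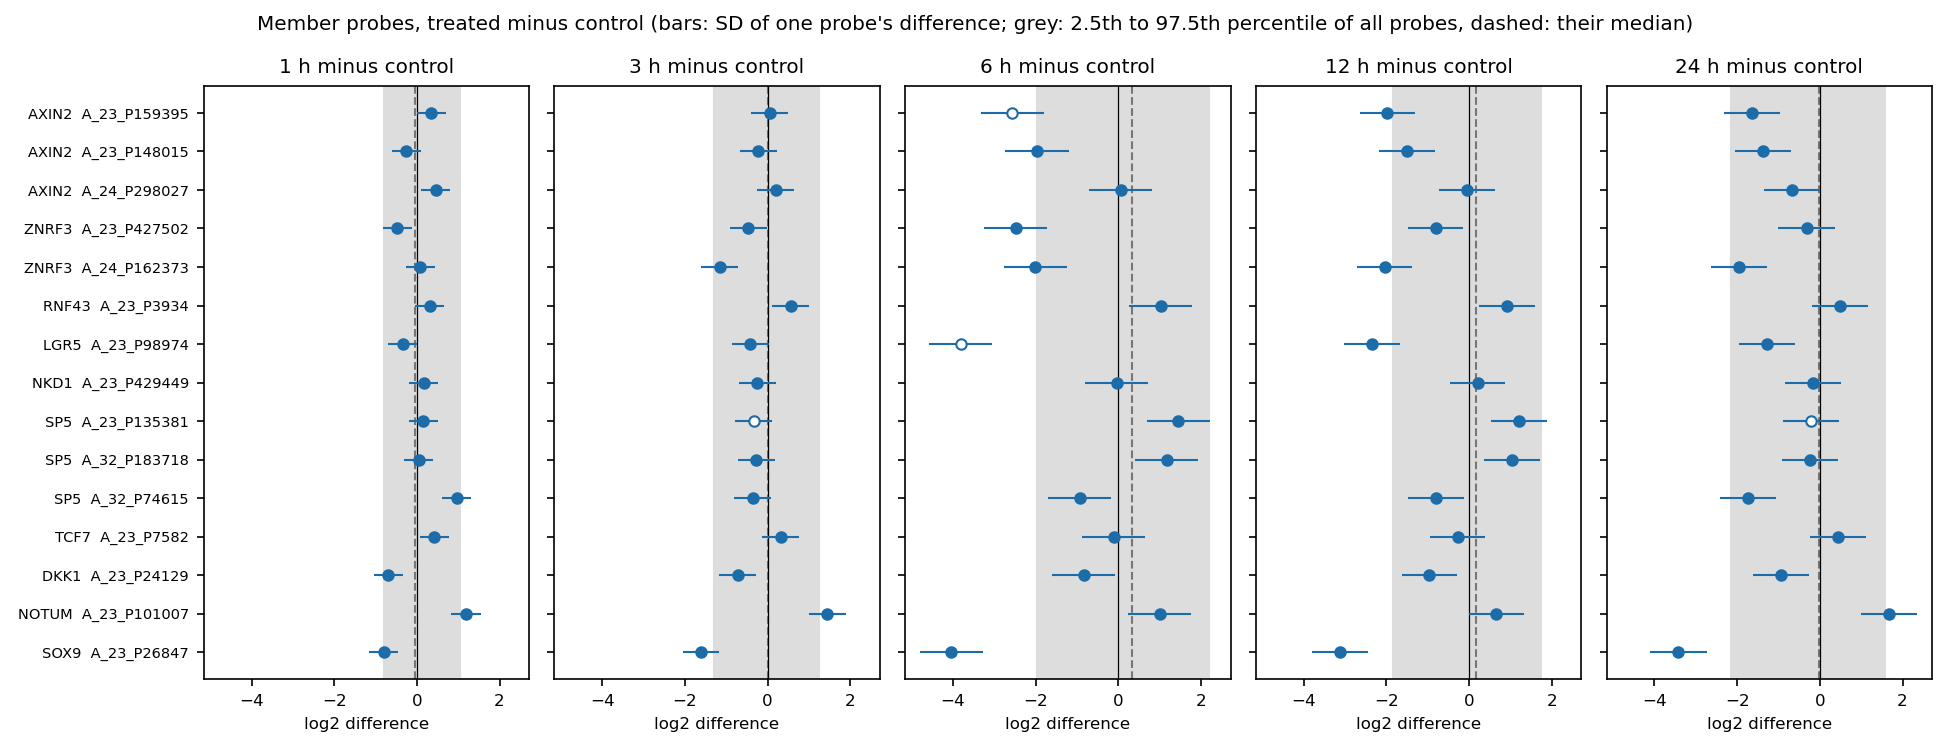
Log2 difference of each treated array minus the control array (x axis) for the 15 member probes (rows) at 1, 3, 6, 12 and 24 h (panels). Bars are the SD of 1 probe's difference, open points were not well above background or were saturated on 1 of the arrays, the grey band holds the middle 95% of all measured probes and the dashed line is their median. SOX9 lies left of the band from 3 h on, at -3.42 at 24 h, and NOTUM lies right of it at 1, 3 and 24 h.

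For a trend with time, limma fitted the slope of scaled log2 signal on log2(hours + 1) over the 6 arrays, for 28648 probes. With 4 residual degrees of freedom, 0 probes passed an adjusted p of 0.05 in either direction (0% rising and 0% falling), and no member did. At an unadjusted p under 0.05, 1048 probes (3.66%) had a rising and 2187 (7.63%) a falling slope. Of the 15 member probes, 5 were among the falling and 0 among the rising. SOX9 had a slope of -0.82 ± 0.17 (SE), a fitted change of -3.82 over 24 h and an unadjusted p of 0.00146, with limma's adjusted p at 0.219. The upstream ZNRF3 probe had a slope of -0.53 ± 0.12, with limma's unadjusted p at 0.00198 and adjusted p at 0.223. The upstream SP5 probe and the last and middle AXIN2 probes had limma unadjusted p-values of 0.00746, 0.017 and 0.023 and adjusted p-values of 0.272, 0.321 and 0.349. Without the 6 h array, 3 probes (0.0105%) had a falling slope past the adjusted threshold, none of them a member. The scatter about a line is not a spread between replicates.

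Leaving out the 6 h and 12 h arrays, those 5 member probes passed an adjusted p of 0.05 in limma, when 7.04% of all probes had a falling and 2.58% a rising slope. The adjusted p was then 0.00253 for SOX9, 0.0132 for the upstream ZNRF3 probe, 0.0377 and 0.0387 for AXIN2, and 0.0383 for the upstream SP5 probe. With normexp background correction limma called SOX9 (adjusted p = 1.88e-07) and the upstream ZNRF3 probe (adjusted p = 0.000115). In that fit 1.66% of probes had a falling and 0.0489% a rising slope past the threshold. There limma took variances from all probes together and not from a probe's own scatter. These p-values therefore cannot be set beside those of the main fit as stronger evidence.

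CTNNB1 encodes beta-catenin itself and was read by a pair of probes, shown here because they gave opposite differences. The downstream probe, at chr3:41256753-41256812, was printed in 10 spots. The upstream one, at chr3:41256258-41256317, had 1 spot.
CTNNB1 downstream A_23_P29495: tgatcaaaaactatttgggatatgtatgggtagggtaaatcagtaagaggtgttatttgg
CTNNB1 upstream A_23_P29499: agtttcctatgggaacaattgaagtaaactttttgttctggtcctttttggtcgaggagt

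The downstream CTNNB1 probe had levels of 1.75 on the control array, then 2.13, 2.86, 4.97, 4.72 and 4.19 at 1, 3, 6, 12 and 24 h, all treated arrays above the control. It was higher by 0.38 ± 0.35, 1.11 ± 0.45, 3.22 ± 0.76, 2.97 ± 0.67 and 2.44 ± 0.68, with a limma unadjusted p of 0.00386 and adjusted p of 0.242 for its slope. The upstream probe differed from the control by 1.18 ± 0.35, 0.50 ± 0.45 and -0.89 ± 0.68 at 1, 3 and 24 h, and was not well above background at 6 h or 12 h. At 24 h the CTNNB1 probes were 3.33 log2 units apart, and 18 of 4719 pairs (0.381%) were at least as far apart. The probes of CTNNB1 thus give opposite directions at 24 h. The pair is shown because of this, so the share describes it and tests nothing.

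**Figure D3:**
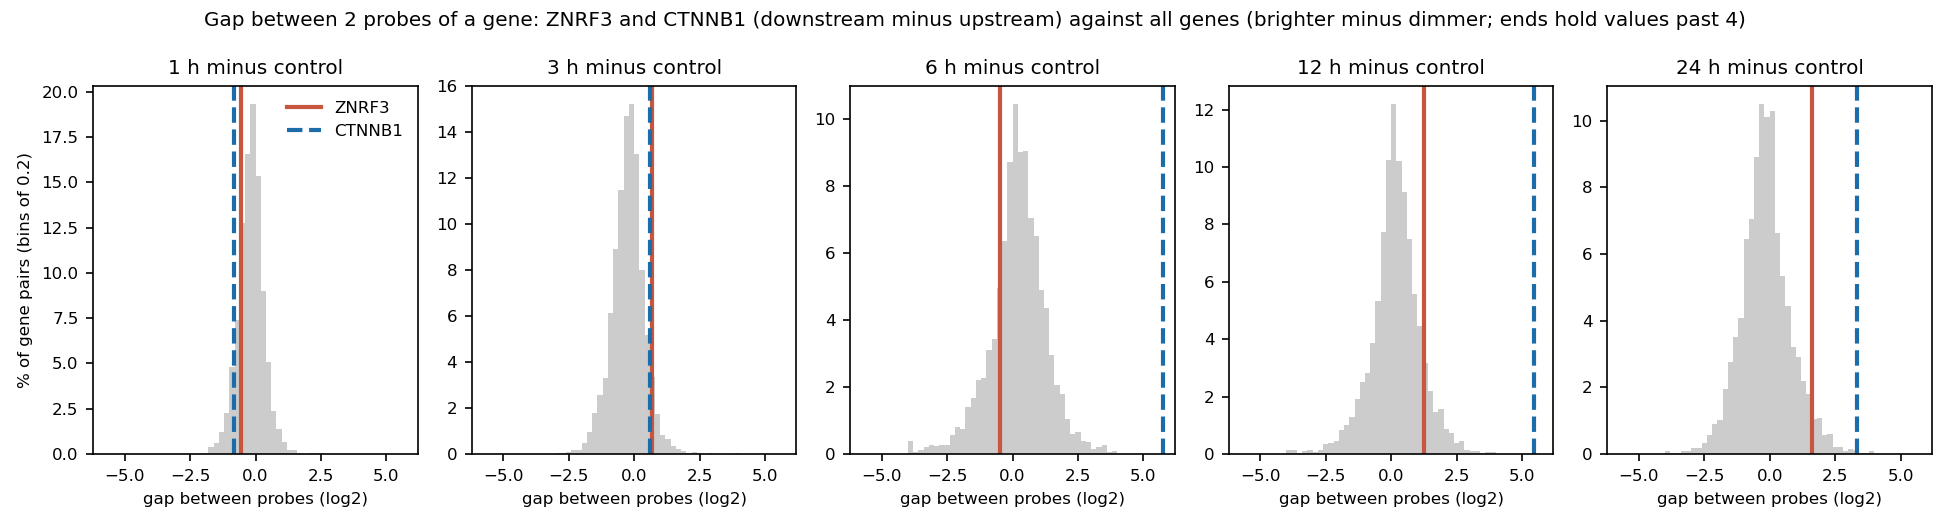
Gap between the log2 differences of 2 probes of a gene (x axis, log2) at each time (panels), as the percent of gene pairs per bin (y axis, grey), with ZNRF3 (solid line) and CTNNB1 (dashed line) as downstream minus upstream. The grey gaps are the brighter minus the dimmer probe, which is the sign of the CTNNB1 line and the reverse of that of ZNRF3. The ZNRF3 gap of 1.63 at 24 h lies inside the spread of other genes, and the CTNNB1 gap of 3.33 at its edge. The upstream CTNNB1 probe was not well above background at 6 h and 12 h.

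The rest of the pathway was described from 9 lists, and no gene of any list had a slope that passed limma's adjusted p. Genes were read at their brightest probe. Across all genes measured, at least 2-fold higher and lower were 2.19% and 0.653% at 1 h, 3.39% and 3.01% at 3 h, 23.1% and 10% at 6 h, 13% and 8.03% at 12 h, and 7.28% and 9.46% at 24 h. The median difference of all genes was -0.05, -0.03, 0.34, 0.22 and 0.02 at these times.

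Among upstream parts of the pathway, WNT ligands and R-spondins were mostly dim. Of 22 on the array, 8 were measured at 24 h, with 1 higher, 1 lower and a median of -0.66. WNT6 was lower by -1.17 ± 0.76 at 6 h and -1.59 ± 0.68 at 24 h at its brightest probe, whereas its other probe lay at 1.82 and 0.37. WNT10A lay above the control by 1.24 ± 0.76 at 6 h and 1.99 ± 0.67 at 12 h but lay at -0.81 ± 0.68 at 24 h, and its other probe was at 1.71 ± 0.45 at 3 h, against -0.78 for the brightest. WNT3 was lower by -1.16 ± 0.45 at 3 h. The named ligands thus lay on either side of the control. Of 17 receptors and co-receptors, 14 were measured at 24 h, 0 higher and 2 lower, with a median of -0.42. LGR6, an R-spondin receptor like LGR5, was lower by -1.73 ± 0.68 at 24 h, FZD3 lay between -0.99 and -0.68 at all 5 times, and FZD1 between -0.76 and 0.46. Of 16 inhibitors outside the members, 10 were measured at 24 h, 0 higher and 2 lower, with a median of 0.009. NKD2, a relative of NKD1, was lower by -1.76 ± 0.68 at 24 h at its brightest probe and lay at 0.37 at its other one. KREMEN2, a receptor for DKK proteins, was higher by 1.20 ± 0.76 at 6 h. SFRP4, a decoy of Frizzled, lay between -0.28 and 0.39.

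The destruction complex and Dishevelled list had 15 of 16 genes measured at 24 h, 0 higher and 2 lower, with a median of -0.02. GSK3B, the kinase that marks beta-catenin, lay between -0.18 and 0.45 from the control at all 5 times. AXIN1, the scaffold related to AXIN2, was at 0.89 ± 0.68 at 24 h and -0.28 ± 0.67 at 12 h. DVL1, a Dishevelled gene, was higher by 2.42 ± 0.76, 1.91 ± 0.67 and 0.92 ± 0.68 at 6, 12 and 24 h, and its other probe lay at 0.82, 0.70 and 1.86. The brightest DVL3 probe lay between -0.59 and -0.05, whereas another was at 1.06 ± 0.35 at 1 h and 1.68 ± 0.68 at 24 h. CSNK1A1, a kinase that primes beta-catenin, was at 0.35 ± 0.68 at 24 h at the brightest of 4 probes and at -1.74 at another. The APC probes gave no signal well above background in control cells. Of 17 nuclear factors, 16 were measured at 24 h, 1 higher and 4 lower, with a median of -0.28. TCF7L2, a TCF factor of the liver, was lower by -1.46 ± 0.45 at 3 h and by -1.99 ± 0.67 and -1.54 ± 0.68 on the 12 h and 24 h arrays. Another TCF7L2 probe was lower by -1.61 ± 0.68 at 24 h. LEF1 was lower by -0.85 ± 0.35 at 1 h and -1.15 ± 0.68 at 24 h. BCL9L, a coactivator gene, lay between -0.26 and 0.92. CREBBP, which encodes another coactivator, was at -0.83 ± 0.68 at 24 h at its brightest probe and at 1.07 and -0.86 at the others.

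Of 16 beta-catenin targets of the liver, 13 were measured at 24 h, 0 higher and 1 lower, with a median of -0.18. GLUL, the glutamine synthetase of perivenous hepatocytes, was lower by -2.00 ± 0.76 at 6 h and -1.74 ± 0.67 at 12 h and lay at -0.48 ± 0.68 at 24 h. GLUL was thus low on the dim arrays, against 0.28 ± 0.35 at 1 h and 0.26 ± 0.45 at 3 h. OAT, ornithine aminotransferase, was lower by -1.16 ± 0.76 at 6 h. SLC13A3, a dicarboxylate transporter, differed by 1.19 ± 0.76 at 6 h and by -1.15 ± 0.68 at 24 h. Of 23 other WNT targets, 18 were measured at 24 h, 1 higher and 5 lower, with a median of -0.22. MYC, a growth-promoting transcription factor, was lower by -2.88 ± 0.76 at 6 h and -0.91 ± 0.68 at 24 h at its brightest probe, while another MYC probe was at 0.16 at 6 h and -0.83 at 24 h. JUN, a subunit of AP-1, was lower at every time, by -1.06 ± 0.35 at 1 h and -1.90 ± 0.68 at 24 h. PROX1, a homeobox factor of hepatocytes, was lower by -2.36 ± 0.76 at 6 h and -1.19 ± 0.68 at 24 h. The lists share 6 genes, so their counts overlap.

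In the SOX family without SOX9, 13 of 19 genes were measured at 24 h, 1 higher and 5 lower, with a median of -0.86. SOX12 was lower by -3.20 ± 0.76 at 6 h and -2.44 ± 0.68 at 24 h at its brightest probe, whereas its other probe was higher by 1.45 ± 0.68 at 24 h. SOX13 was lower by -2.23 ± 0.76 at 6 h and -0.87 ± 0.68 at 24 h, and SOX4 was higher by 1.49 ± 0.76 at 6 h. Of 14 genes of biliary and progenitor cells, where SOX9 is known in liver, 10 were measured at 24 h, 1 higher and 2 lower, with a median of -0.45. ONECUT1, a factor of biliary and hepatocyte development, was lower by -1.98 ± 0.67 at 12 h and -1.67 ± 0.68 at 24 h. CLDN4, a tight-junction gene, lay above the control by 1.40 ± 0.35 at 1 h and 1.78 ± 0.68 at 24 h. HES1, a Notch target, was at -1.56 ± 0.76 at 6 h and -0.51 ± 0.68 at 24 h at its brightest probe, with 1.30 and -1.47 at the others at 24 h.

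**Figure D4:**
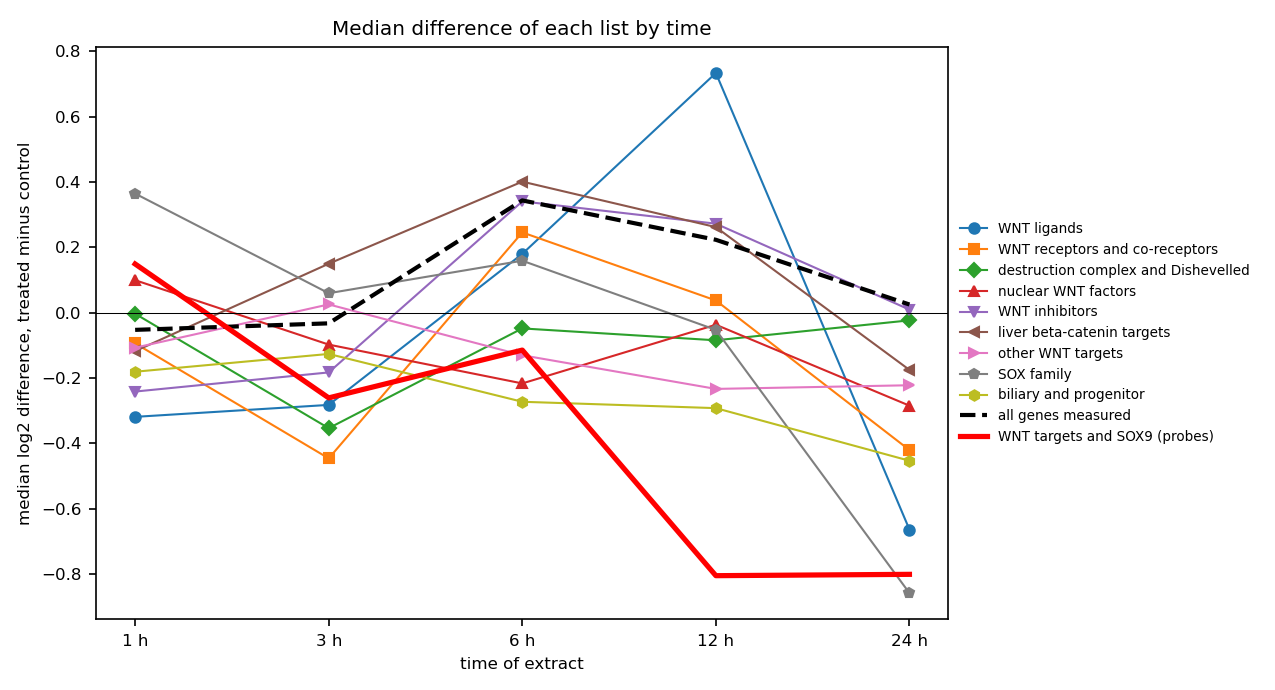
Median log2 difference from the control array (y axis) of each pathway list, of the 15 member probes and of all genes measured, at 1, 3, 6, 12 and 24 h (x axis, evenly spaced). The member median is -0.81 at 12 h and -0.80 at 24 h, and at 24 h the SOX family lies at -0.86, while all genes lie at 0.22 and 0.02 at these times.

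The genes most like SOX9 and AXIN2 over the 6 arrays were sought among 4751 genes. These were above background on all arrays and had an SD of at least 0.5. By Pearson's r these were LDAF1 (0.995), BCL10 (0.994) and UBE2T (0.994) for SOX9. LDAF1 encodes a lipid droplet assembly factor, BCL10 an adaptor of NF-kB signalling and UBE2T a ubiquitin-conjugating enzyme. For the brightest AXIN2 probe they were VAPA (0.997), an endoplasmic reticulum tether, TM9SF3 (0.997), a membrane protein, and GATA6 (0.994), a zinc-finger factor. An r of at least 0.9 was reached by 5.05% of these genes with SOX9 and by 6.25% with AXIN2. All r values share the same 6 arrays and their scaling, and they are descriptions.

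Promoters were read from RefSeq on GRCh38.p14, as 250 bases before to 50 after a start site, and the table matched SP5, TCF7, DKK1 and RNF43. The TCF/LEF motif was searched as CTTTGAA, as CTTTGAT, as CTTTGTA and finally as CTTTGTT on both strands, with overlapping matches counted. At least 1 match was present in 13.8% of 35116 promoters, and at least 2 in 1.58%. The SP5 promoter at chr2:170715087-170715386 (plus strand) held 3 matches, starting 148, 109 and 84 bases before the start site. The DKK1 promoter at chr10:52314031-52314330 (plus strand) held 2, starting 95 and 76 bases before it. Of a pair of TCF7 promoters, the one at chr5:134123368-134123667 held 1 match and the other 0, and neither RNF43 promoter held one. The SP5 and DKK1 promoters are shown because they hold more than 1 match, with the matches in capitals.
SP5 promoter: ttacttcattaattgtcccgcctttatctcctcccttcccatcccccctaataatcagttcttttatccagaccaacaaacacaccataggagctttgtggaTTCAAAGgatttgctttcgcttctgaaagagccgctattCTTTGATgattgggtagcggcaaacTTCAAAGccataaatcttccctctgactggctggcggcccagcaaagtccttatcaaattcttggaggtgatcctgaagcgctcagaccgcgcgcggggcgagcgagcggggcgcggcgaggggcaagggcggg
DKK1 promoter: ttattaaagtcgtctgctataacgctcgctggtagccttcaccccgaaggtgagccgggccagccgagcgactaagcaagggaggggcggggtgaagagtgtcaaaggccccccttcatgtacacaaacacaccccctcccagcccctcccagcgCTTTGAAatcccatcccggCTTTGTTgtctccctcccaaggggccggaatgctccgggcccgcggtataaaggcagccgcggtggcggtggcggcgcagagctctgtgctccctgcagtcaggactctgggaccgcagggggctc

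A match describes these letters only, and no binding was measured. SP5, with 3 matches, had probes on both sides of the control at 6 h with the scaling used here, but all below it with normexp. DKK1, with 2 matches, was below the control at every time.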

How the data were processed

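Gene expression was measured on 6 one-colour Agilent arrays of HepG2, per the labels. Per the labels' protocols, an RNeasy kit was used for the RNA and an Agilent linear amplification kit for the label. They name mouse liver beside HepG2, but every sample here is HepG2, and they name Cy5, whereas the deposited files hold green-channel columns. The deposited scanner files hold intensity per spot, among them a background-corrected processed signal that was not scaled between arrays, per the file headers. The authors' deposited value table also holds intensity for 35646 probes, and at least 99.3% of its values lay within 0.51 of the spot median minus the local background. No source used here names the scanner software version or the genome build of the probe positions.

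Control spots (1639 per array) were left out, 105 of 41000 probes flagged as outliers were dropped, spots of a probe were averaged, and log2 of the processed signal minus the array's 75th percentile was used. A gene was its probe with the highest mean. The slope was fitted with limma 3.58.1 in R 4.3.3 for probes that 3 or more arrays measured well above background. P-values were adjusted by Benjamini-Hochberg. The fit was also run on simulated data with independent noise per probe and array. That noise holds no shift shared by the probes of a dim array, so the run cannot tell how the fit handles such shifts. Nothing in the labels tells of more than 1 culture per group, and the number of arrays limits the precision. The error of a difference came from 3024 to 4781 genes, those that 2 probes measured at the time in question.

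The members and the lists were chosen with earlier results of these data known. Named in the text were all members, CTNNB1, APC, AXIN1, GSK3B, TCF7L2, LEF1 and GLUL. Up to 3 genes per list were added, those with the largest absolute median difference among genes measured on all 6 arrays. Genes with a larger median that were not measured on all arrays, such as HAL and TNKS2, were passed over. The 3 genes most correlated with SOX9 and with AXIN2, among those with an SD of at least 0.5, were named too. Alternatives were the scaling, the background correction, the deposited value table, the filters, the time scale, the fold threshold and the arrays left out.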

Additional observations from a re-analysis of the deposited data

How the results depend on the processing

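Of 450 member differences recomputed under other settings, 421 moved by less than the error. Of those at least 2-fold from the control, 6 changed sign, all at 6 h with normexp background correction, to 0.62 (middle AXIN2 probe), -0.39 (RNF43), 0.93 (LGR5), -0.17 and -0.40 (middle and last SP5 probes) and -0.038 (NOTUM). SOX9 lay between -4.13 and -2.56 at 6 h and between -3.55 and -3.33 at 24 h under all settings, and between -3.25 and -2.81 at 12 h. At 6 h normexp also moved DKK1 to -2.18, NKD1 to -1.32 and the upstream AXIN2 probe to 1.5. Of 71 measured member differences over the 5 times, 9 were at least 2-fold higher, and 4 with quantile normalization, 3 with cyclic loess and 4 with normexp. Without the 6 h and 12 h arrays 3 of 43 were. Those at least 2-fold lower numbered 17 of 71, then 27 of 71 at a threshold of 1.5-fold, and 8 of 43 without those arrays. Leaving those arrays out was a setting added for these counts after seeing the data, and it takes away their differences. The shares of all probes given above are for the main scaling only, so the counts under other settings describe the members alone. The ZNRF3 gap at 6 h was 1.77 with normexp, and the other 24 of 25 recomputed gaps moved by less than their error.

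Slopes past an adjusted p of 0.05 in limma numbered 0, and 490 with normexp, 2 with the authors' deposited values, 2 with no filter on dim probes, 2758 without the 6 h and 12 h arrays, and 0 to 3 when 1 array was left out (3 when that was the 6 h one). The normexp count rests on variances that limma took from all probes together. At an unadjusted p, 3235 slopes passed, and 1663 to 5780 with 1 array left out. Slopes near 0 changed sign. On linear hours they were 0.0017 (downstream ZNRF3), -0.00024 and -0.00097 (middle and last SP5) and 0.0046 (TCF7). With 1 array left out they were 0.0022 (downstream ZNRF3, control), 0.0024 and 0.030 (NKD1 and TCF7, 1 h), 0.0021 (TCF7, 6 h), 0.045 (TCF7, 12 h) and 0.020 (NKD1, 24 h). With 1 array left out the slope of NKD1 lay between -0.049 and 0.020 and that of TCF7 between -0.11 and 0.045. Without the 6 h and 12 h arrays the slopes that changed sign were -0.063 and -0.060 (middle and last SP5) and 0.072 (TCF7). The cause of these changes was not tested. Of 315 recomputed results of the pathway lists over all times, 5 moved and 310 stayed the same. The 24 h list medians moved by less than the error under every setting tried. That error, 0.68 for 1 probe, is larger than every 24 h list median except that of the SOX family (-0.86). Staying within it therefore says little about how stable the medians are. On the 6 h array 49.5% of probes were well above background. No paired analysis was possible because each group holds 1 array.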
